A study of Mus musculus with 21 samples.

Results

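Genes of the endoplasmic reticulum (ER) secretory pathway and of its unfolded-protein response were measured in mouse blood cells. Of the transcription repressors Bach2 and Bach1, some cells lacked Bach2 alone, some lacked both and some overexpressed Bach2. The set was given by name, as 41 gene symbols, and all 41 of the 20018 gene symbols with a named probe on the array were found. It holds 11 genes of the translocon and signal peptidase, 17 chaperones and folding enzymes, 8 genes of ER-associated degradation and 5 sensors and transcription factors. Each gene was read from 1 probe, the one with the highest mean over the 21 arrays, and 11 genes had further probes.

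Secreted and membrane proteins enter the ER through the Sec61 channel, lose their signal peptide there and fold with the help of chaperones and disulfide isomerases. When unfolded proteins pile up, the membrane sensors Ern1 (IRE1), Atf6 and PERK start the unfolded-protein response, which raises chaperones and degradation factors through the transcription factors Xbp1, Atf6 and Atf4. Plasma cells, which secrete antibody, are known for a large ER and for high levels of these genes.

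The study held 7 groups of 3 single-colour Agilent arrays in 3 experiments. In the first, common lymphoid progenitors (CLPs) sorted from bone marrow of wild-type (WT) mice were compared with CLPs deficient in both Bach1 and Bach2 (DD), each RNA being a pool. In the second, WT multipotent progenitors (MPPs, Lin-, c-kit+, Sca-1+, Flt3mid), pooled from 4 mice per experiment, were kept overnight with the cytokines IL-6 (10 ng/ml), IL-3 (5 ng/ml) and SCF (50 ng/ml) and infected with a retroviral vector. MPPs with the MSCV-GFP vector (control vector) or with Bach2-GFP (Bach2 vector) were sorted as GFP+ after 2 days in a multi-lineage culture. The third group of this experiment received the Bach2 vector, spent 24 h in that culture and then 6 days in a B-lineage culture, and was sorted as GFP+ B220+, so it differs from the MPP groups in vector or culture, time and sort together. In the third experiment, follicular (FoB) B cells of WT or Bach2-deficient (Bach2KO) mice were cultured for 24 h with 10 ug/ml of an anti-mouse IgM Fab' fragment, and no unstimulated group was analysed here. No source used here states how old the mice were or their sex. The label for follicular B cells speaks of 1 RNA sample per genotype, so p-values there may measure technical spread only.

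Levels below are log2 of the processed spot intensity minus that array's own 75th percentile, control spots left aside, so that 0 lies at that percentile and a difference of 1 is 2-fold. They were compared between groups for 1 gene at a time, since probes differ in brightness. Well above background were 66.8 to 81.5% of gene probes in CLP arrays, 62.6 to 81.4% in MPP-derived arrays and 50.9 to 58.8% in follicular B-cell arrays. The 75th-percentile intensity itself was 2858 to 5127 in CLP arrays, 2071 to 3377 in MPP-derived arrays and only 97.3 to 358 in follicular B-cell arrays. Bach2KO follicular replicate 2 was the dimmest, at 97.3, with 50.9% of probes well above background and 511 outlier spots. Bach2 checked the labels: its probe fell by 3.76 in Bach2KO follicular B cells (limma adjusted p = 0.00092), whereas in DD CLPs the difference of -2.11, with the Bach2 vector that of 1.15 and in B220+ cells against the control vector that of -0.12 did not pass (adjusted p = 1.00, 0.77 and 0.91). A second Bach2 probe, which was not in the fit, was 4.43 higher with the Bach2 vector and 3.45 higher in B220+ cells than with the control vector, well above background on all 3 arrays of both against 1 of 3. It was above background on 0 of 3 DD and 1 of 3 WT CLP arrays and on 0 of 3 Bach2KO and 3 of 3 WT follicular B-cell arrays. Of 6 early B-cell markers, 3 were well above background on all 3 arrays of the B220+ cells, against 4 in each MPP group. Among them Ebf1 was well above background on 1 of 3 B220+ arrays and on none of either MPP group. As a list, the 6 summed to -1.04 to 0.65 in log2 units on B220+ arrays. The sums were -0.67 to 0.25 on control-vector and 0.64 to 1.85 on Bach2-vector arrays, so the list was not higher in B220+ cells. Granulocyte markers were all 8 well above background in the B220+ cells, and 7 of 8 in both MPP groups.

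Some arrays stood apart. In CLPs each replicate number lay on a slide of its own. There number 1 was lower than numbers 2 and 3 by over 1 in both genotypes' mean for 5 members, with differences of -3.47 for Edem2, -3.43 for Ssr2 and -2.10 for Fkbp2. In follicular B cells replicate number 1 was higher in 36 of 41 members, with a median of 0.57. Replicate 3 of the B220+ cells had Ddit3 at 3.94 against 0.64 and 0.72 on the other arrays of its group. The heat map shows these arrays as columns that differ from their neighbours.

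**Figure D1:**
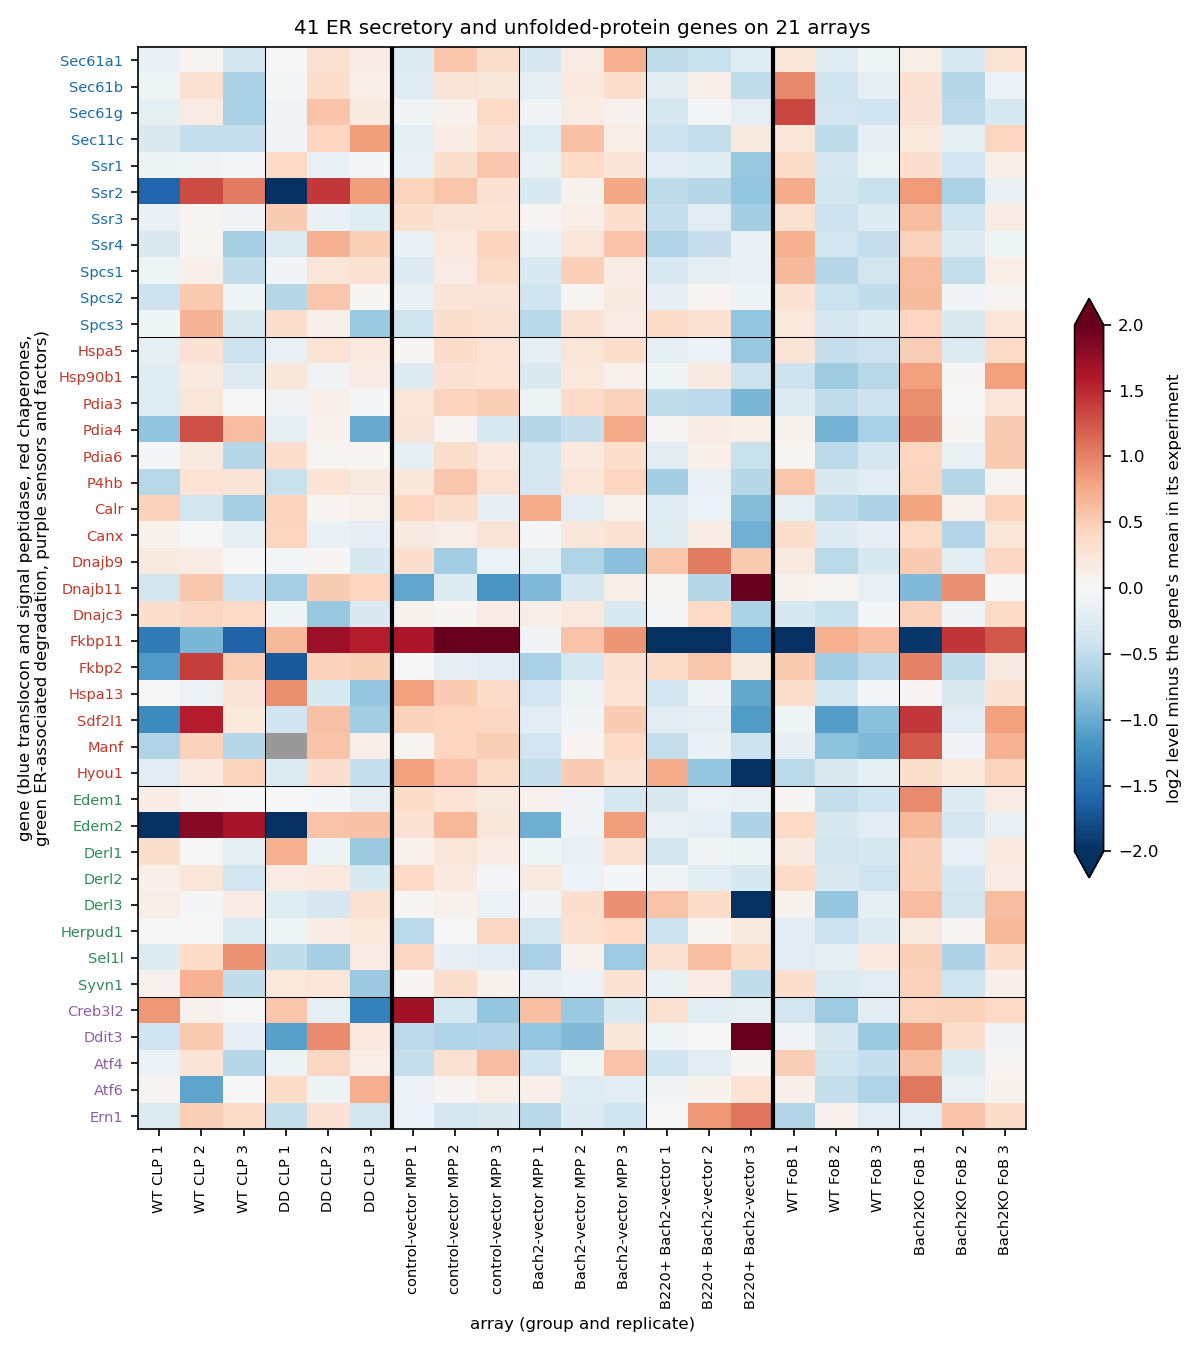
Each row is 1 of the 41 genes, ordered by role, and each column 1 of the 21 arrays, and colour gives the log2 level minus that gene's mean over the arrays of the same experiment (thick lines), with grey for a missing value and colours ending at 2 in each direction. Fkbp11 changes most between groups, replicate 1 of both CLP groups is low for Ssr2 and Edem2, and many rows are redder in Bach2KO than in WT follicular B cells.

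The promoters of these genes are known for the ER stress response element (ERSE), a CCAAT box spaced from a CCACG box, and its shorter form ERSE-II, sites through which Atf6 and Xbp1 act. RefSeq promoter windows (GRCm38.p6, 250 bases before and 50 after the start of transcription) were held for 32 of the 41 members. They were searched on both strands for ERSE, written as CCAAT, 9 bases of any kind and CCACG, and for ERSE-II, written as ATTGG, 1 base of any kind and CCACG, both of which contain the CCACG box. ERSE was found in 8 members and in 0.119% of all 32851 windows, and ERSE-II in 2 members and 0.0365% of windows. The genes were chosen by name and not by these matches, but genes of this kind are the ones known for ERSE. The share among members beside that of all windows is thus no independent result. The matches are shown as a description. They stand in 10 of the 32 members with a window, and the other 22 have neither. They are written 5′ to 3′ on the gene's own strand with the motif, or its reverse complement, in capitals.
Calr chr8:84847070-84847098, minus strand: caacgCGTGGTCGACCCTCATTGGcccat
Canx chr11:50325795-50325823, minus strand: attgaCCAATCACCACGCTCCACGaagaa
Derl3 chr10:75893237-75893265, plus strand: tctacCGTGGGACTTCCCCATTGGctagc
Dnajc3 chr14:118937822-118937850, plus strand: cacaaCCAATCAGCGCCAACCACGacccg
Hsp90b1 far site chr10:86705633-86705661, minus strand: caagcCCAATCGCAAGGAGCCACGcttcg
Hsp90b1 near site chr10:86705528-86705556, minus strand: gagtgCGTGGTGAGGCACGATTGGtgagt
Hspa5 chr2:34772020-34772048, plus strand: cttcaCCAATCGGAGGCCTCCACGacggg
Pdia6 chr12:17266486-17266514, plus strand: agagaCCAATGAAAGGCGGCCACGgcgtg
Syvn1 chr19:6046527-6046555, plus strand: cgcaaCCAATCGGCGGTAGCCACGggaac
Dnajb11 chr16:22857847-22857867, plus strand: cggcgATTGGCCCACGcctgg
Herpud1 chr8:94386372-94386392, plus strand: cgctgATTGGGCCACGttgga

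Hsp90b1 carried a pair of matches, in opposite orientation. The CCACG box alone stood in 26 of the 32 members and in 32.8% of all windows. The XBP1-type UPRE TGACGTGG was in 0 members and 0.676% of windows, and the amino-acid response element TGATGNAA in Herpud1 alone and 3.97% of windows. The Bach and small Maf site, searched as TGCTGA, 1 base of any kind and TCA, was found in 0 of the 32 members and 0.423% of windows. The AP-1 core TGANTCA, whose letters are part of that site, was in Sec61b, Hspa5, Sel1l and Ddit3 and in 7.81% of windows. A match is a description of letters and no measured binding.

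Longer stretches, the 250 bases before the start, follow for 3 members: Hsp90b1 and Sdf2l1, both called with the replicate block in the follicular B cells described below, and Hspa5, the best-known carrier of ERSE, which was not called. Capitals mark ERSE and every CCACG or its reverse complement.
Hsp90b1 chr10:86705445-86705694, minus strand: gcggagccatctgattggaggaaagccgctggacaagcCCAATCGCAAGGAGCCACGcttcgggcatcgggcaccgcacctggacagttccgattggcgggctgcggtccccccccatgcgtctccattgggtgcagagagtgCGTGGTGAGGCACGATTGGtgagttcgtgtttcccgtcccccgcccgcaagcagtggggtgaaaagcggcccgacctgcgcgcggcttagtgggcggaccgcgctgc
Sdf2l1 chr16:17132384-17132633, minus strand: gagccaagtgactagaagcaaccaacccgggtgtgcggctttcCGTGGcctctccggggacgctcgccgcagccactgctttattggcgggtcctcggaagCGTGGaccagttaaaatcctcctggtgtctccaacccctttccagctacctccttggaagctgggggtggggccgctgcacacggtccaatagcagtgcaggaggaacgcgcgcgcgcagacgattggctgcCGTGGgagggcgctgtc
Hspa5 chr2:34771840-34772089, plus strand: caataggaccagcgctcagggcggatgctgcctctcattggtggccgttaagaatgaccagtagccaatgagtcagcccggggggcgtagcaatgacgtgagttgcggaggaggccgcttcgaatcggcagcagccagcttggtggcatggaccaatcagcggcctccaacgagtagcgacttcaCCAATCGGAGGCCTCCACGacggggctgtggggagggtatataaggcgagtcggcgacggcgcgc

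In DD against WT CLPs no member passed the test, and Fkbp11 had the largest difference. Of 40 members tested (0 called), 21 lay above 0, with a median difference of 0.02 against 0.04 over all 16466 genes, of which 0.00607% (1 gene) were called. At an unadjusted p under 0.05 there was 1 member, Fkbp11, against 3.76% of all genes. Fkbp11, an ER-membrane peptidyl-prolyl isomerase abundant in secretory cells, read -3.30, -2.81 and -3.52 in WT and -1.25, -0.19 and -0.33 in DD CLPs. Every DD array was thus above every WT array, by 2.62 ± 0.41 (SE) in the mean, 6.14-fold, with a limma adjusted p of 0.38, or 0.38 with the replicate number as a block. Leaving out any single array kept the adjusted p between 0.055 and 1.00.

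Of the other CLP differences, Sec11c, a catalytic subunit of signal peptidase, read 3.10, 2.92 and 2.92 in WT and 3.33, 3.82 and 4.22 in DD CLPs. Dnajc3 (P58IPK), a co-chaperone of Hspa5 that also inhibits PERK, read 2.14, 2.24 and 2.22 in WT and 1.74, 1.07 and 1.53 in DD. Both separated the groups, in opposite directions, and neither passed (adjusted p = 1.00 for both, 0.54 with the block). The 2 members whose groups separated upward compare with 4.93% of all genes and the 1 downward with 2.98%. By role the median differences were 0.29 for translocon and signal peptidase, 0.00 for chaperones, -0.15 for degradation genes and 0.04 for sensors.

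Pdia4, a disulfide isomerase, had DD minus WT differences of 0.60, -1.20 and -1.63 for replicate numbers 1, 2 and 3. Sdf2l1, a component of an ER chaperone complex, read 2.35, 5.20 and 3.83 in WT and 3.21, 4.20 and 2.92 in DD. With the pair of number 1 left out, which leaves 4 arrays, Fkbp11 differed by 2.90, Sec11c by 1.10, Edem2 (which takes mannose from misfolded glycoproteins) by -1.16, Pdia4 by -1.41 and Sdf2l1 by -0.95, each with an adjusted p of 0.19 in limma. Manf, an ER-retained survival factor, had no value on DD replicate 1, whose spot bore an outlier mark, so its difference rests on 5 arrays. Of the 94 other genes of the pathway in 7 further lists, 93 were tested, and 0 passed in either direction.

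In MPPs the Bach2 vector was again accompanied by the largest member difference in Fkbp11, here downward. None of 40 members passed (0 called), while 1.8% of the 16991 genes tested did. An unadjusted p under 0.05 was reached by 1 member, against 8.66% of all genes. The members' median was -0.12 and that of all genes -0.02, with 7 of 40 members above 0. Fkbp11 read 3.26, 3.94 and 3.82 with the control vector and 1.57, 2.20 and 2.51 with the Bach2 vector. All Bach2-vector arrays lay below all control arrays, by 1.58 ± 0.51 (SE), 2.99-fold, with a limma adjusted p of 0.26 and 0.15 with the replicate block. The spread was estimated over all 9 arrays of the experiment, and without replicate 3 of the B220+ cells, which is in neither group compared, the same difference had an adjusted p of 0.044.

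Hspa13, an Hsp70-like protein of microsomes, read 2.82, 2.50 and 2.39 with the control vector and 1.61, 1.89 and 2.27 with the Bach2 vector. Edem1, which hands misfolded glycoproteins to degradation, read 4.04, 3.95 and 3.86 with the control vector and 3.76, 3.62 and 3.35 with the Bach2 vector. These separated the groups downward by 0.65 and 0.38 in the mean without passing (limma adjusted p = 0.66 and 0.89). In all, 3 members separated downward, against 7.29% of all genes, and 0 upward, against 7.66%. The 11 translocon and signal peptidase genes kept within -0.25 and 0.08.

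Of the 94 other pathway genes 0 rose and 1 fell, against 1.07% and 0.724% of all genes. The gene was Slc7a11, the cystine transporter and an Atf4 target, which read 0.41, -0.86 and 0.02 with the control vector and -6.18, -5.60 and -5.89 with the Bach2 vector (difference -5.74, limma adjusted p = 0.0015). Sec24d, a COPII coat subunit of ER-to-Golgi vesicles, differed by -1.83 and Xbp1 by -0.49, and neither passed (adjusted p = 0.16 and 0.77).

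Markers of other cells differed between the vector groups as well. The 4 CLP markers summed to 3.89 to 4.54 in log2 units on control-vector arrays, 4.73 to 5.29 on Bach2-vector arrays and 6.34 to 6.57 on B220+ arrays, with no overlap and all 4 well above background. The 6 T and NK markers summed to 4.42 to 4.84, 5.73 to 6.03 and 5.83 to 6.13, with Cd3g not well above background in both MPP groups, nor Ncr1 in all 3 groups. The 8 granulocyte markers summed to 8.40 to 8.52, 7.94 to 8.30 and 8.34 to 8.62, and the 6 monocyte and macrophage markers to 4.98 to 5.43, 4.56 to 4.97 and 5.33 to 5.41. Both lists were lower with the Bach2 vector than with the control vector, without overlap. The 5 mast-cell and basophil markers summed to 3.08 to 4.57 on control-vector, 4.40 to 5.75 on Bach2-vector and 4.34 to 7.06 on B220+ arrays, with overlap. Of these, 4, 3 and 5 were well above background on all 3 arrays of the group. The part of such cells in the members' differences was not tested.

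**Figure D2:**
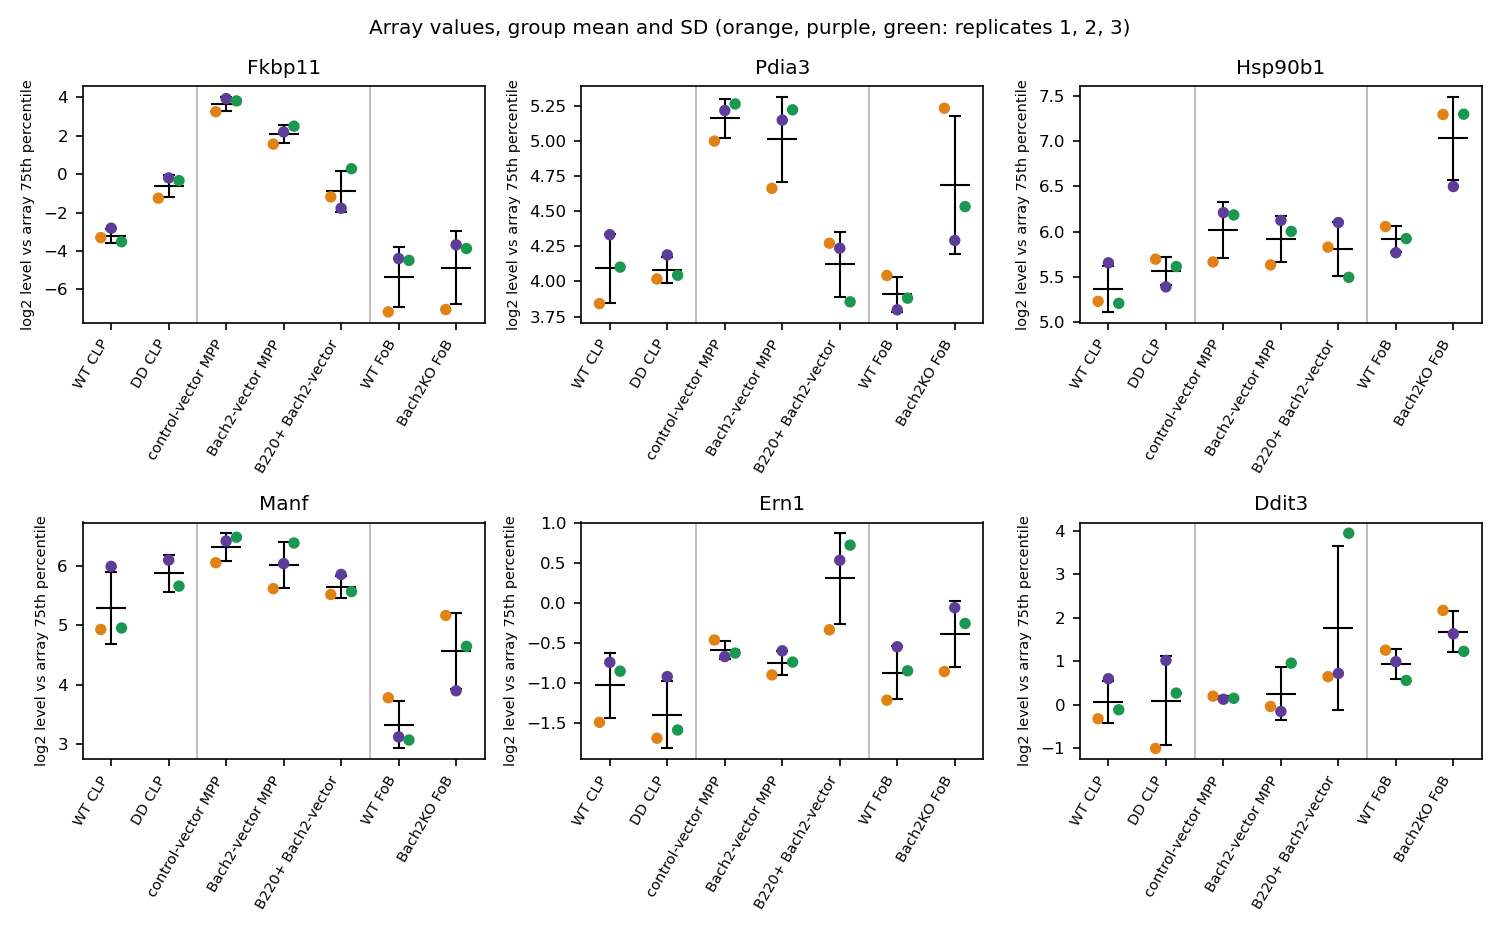
Points are the array values of 6 members, as log2 level relative to the array's 75th percentile, in the 7 groups; bars give the mean and SD of 3 arrays (2 for Manf in DD CLPs), and vertical lines part the 3 experiments. Fkbp11 runs from a mean of 3.67 in control-vector MPPs to -0.89 in B220+ cells, Hsp90b1 and Manf are higher in Bach2KO than in WT follicular B cells, and 1 B220+ array stands alone for Ddit3.

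In B220+ Bach2-vector cells Fkbp11 and Pdia3 fell against control-vector MPPs, and the sensor Ern1 stood among the few members with higher values. Of 40 members tested 2 were called lower and 0 higher, against 7.45% and 4.65% of the 16991 genes. Fkbp11 read -1.18, -1.77 and 0.29 in the B220+ cells, below every control-vector array, and fell by 4.56 ± 0.51 (SE), 23.6-fold (limma adjusted p = 0.00083). This call held with the slide as a block (adjusted p = 0.0065) and over its other alternatives (0.00023 to 0.0065). Pdia3 (ERp57), the disulfide isomerase that works with calnexin and calreticulin on glycoproteins, read 5.00, 5.21 and 5.26 in control-vector MPPs, 4.66, 5.15 and 5.22 in Bach2-vector MPPs and 4.27, 4.24 and 3.86 in B220+ cells. Its fall of 1.04 ± 0.25 (SE) had an adjusted p of 0.029, which became 0.086 with the slide block. It became 0.111 without control-vector replicate 2, 0.103 without control-vector replicate 3, 0.061 without B220+ replicate 1 and 0.063 without B220+ replicate 2, and 0.094 when arrays were centred on their median.

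The control-vector arrays of numbers 2 and 3 were on another slide than all B220+ arrays. Within the shared slide, replicate number 1 of each vector group and all B220+ arrays, Fkbp11 was 3.26 with the control vector against at most 0.29. Centring moved all genes: the median over all genes was -0.29 with the 75th percentile and 0.02 with the array median, and called genes went from 790 higher and 1266 lower to 985 higher and 658 lower. The members' median moved with it, from -0.33 to -0.02, and the members above 0 from 7 to 17 of 40.

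Below the threshold, Ssr2 and Ssr3, subunits of the translocon-associated TRAP complex, differed by -1.05 and -0.75, Hspa13 by -1.08 and Sdf2l1 by -0.94 (limma adjusted p = 0.051, 0.061, 0.052 and 0.087). Ssr2 read 5.42, 5.53 and 5.26 in control-vector MPPs and 4.47, 4.40 and 4.20 in B220+ cells, with no overlap. In the other direction, Ern1, the sensor that splices Xbp1 mRNA, read -0.47, -0.67 and -0.63 in control-vector MPPs and -0.34, 0.53 and 0.72 in B220+ cells, a difference of 0.89 ± 0.30 (SE; adjusted p = 0.087). Without B220+ replicate 1, Ern1 was called higher in this comparison and Hyou1 lower. Hyou1 then read -5.39 and -6.66 in B220+ cells, against a mean of -4.03 in control-vector MPPs. Dnajb9 (ERdj4), a target of spliced Xbp1, differed by 0.86 on its main probe and by -0.57 on its other probe, so its probes disagree. In all, 15 members lay lower without overlap, against 23.5% of all genes, and 4 higher, against 11%. All 11 translocon and signal peptidase genes were below 0, from -1.05 to -0.11, under the 75th-percentile scaling.

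Ddit3 (CHOP), a transcription factor of prolonged ER stress, read 0.64, 0.72 and 3.94 in the B220+ cells and 0.12 to 0.19 with the control vector. Its difference of 1.61 ± 0.78 (SE) had an adjusted p of 0.20 and was 0.53 without B220+ replicate 3. On that array Derl3, a factor that moves misfolded proteins out of the ER, was at -5.29 against -2.61 and -2.80, and Dnajb11, which was below background on the other 20 arrays and was not tested in any comparison, was well above it. Hyou1, an Hsp110-like exchange factor, was there at -6.66 and not well above background. Without that array Fkbp11 differed by -5.15 and Pdia3 by -0.90 (adjusted p = 0.00023 and 0.047).

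Against Bach2-vector MPPs, which shared the vector, Fkbp11 was the member that passed. Of 40 members 1 was called lower and 0 higher, against 4.16% and 2.01% of all genes. Fkbp11 fell by 2.98 ± 0.51 (SE), 7.90-fold (limma adjusted p = 0.011). The adjusted p was 0.058 with the slide block and 0.055 without Bach2-vector replicate 3, and otherwise 0.0013 to 0.047. Dnajb9 differed by 1.24 on its main probe and 0.02 on the other, Ern1 by 1.05, Pdia3 by -0.89 and Sel1l, the adaptor of the ubiquitin ligase Syvn1, by 0.85 (adjusted p = 0.057, 0.077, 0.073 and 0.13). Without B220+ replicate 1 Ern1 was called as well. Members whose groups separated were 6 lower and 3 higher, beside 21.7% and 7.46% of all genes. Median centring turned the members' median here too, from -0.24 with 8 of 40 above 0 to 0.07 with 22, while that of all genes went from -0.25 to 0.06. The B220+ comparisons share the B220+ arrays, so their values stand side by side and do not support each other.

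**Figure D3:**
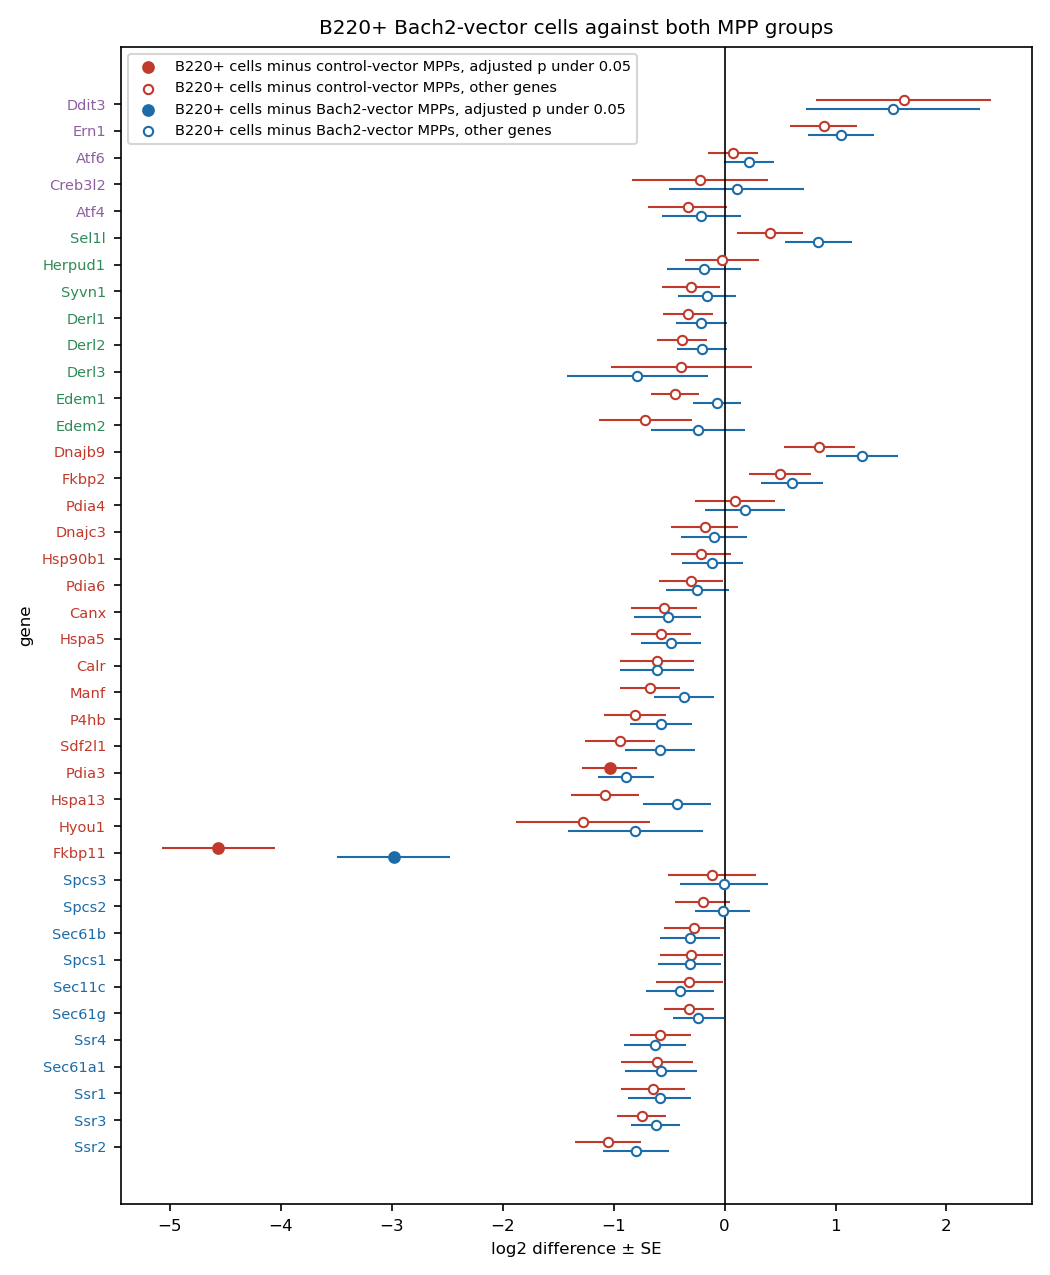
Log2 differences with standard errors for 40 members, in B220+ cells minus control-vector MPPs (red) and minus Bach2-vector MPPs (blue), with filled points for adjusted p under 0.05. Fkbp11 lies far to the left at -4.56 and -2.98, and Ddit3, Ern1, Dnajb9 and Sel1l lie to the right of 0 in both.

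The other pathway genes in B220+ cells against control-vector MPPs counted 1 rise and 9 falls among 94, against 4.65% and 7.45% of all genes. Xbp1, whose spliced form drives most ER chaperone genes, fell by 1.70 (4.66, 4.14 and 4.71 against 6.00, 6.15 and 6.48; limma adjusted p = 0.0034) and by 1.21 against Bach2-vector MPPs (adjusted p = 0.026). Kdelr2, a receptor that returns ER proteins from the Golgi, fell by 1.51, the p97 ATPase Vcp by 0.87 and the signal recognition particle subunit Srp19 by 1.09 (adjusted p = 0.011, 0.027 and 0.031). Slc7a11 fell by 6.59, and Stt3b of the oligosaccharyltransferase, the degradation enzyme Ube2j1 and the thioredoxin-like Txndc11 and Txndc5 completed the falls. Bbc3 (PUMA), a pro-apoptotic gene, rose by 1.64 (limma adjusted p = 0.013) and by 1.36 against Bach2-vector MPPs (adjusted p = 0.046). Against Bach2-vector MPPs 1 rise and 1 fall were called in all, beside 2.01% and 4.16% of all genes. Plasma-cell markers, of which Xbp1 is one, summed to 6.04 to 6.52 in log2 units on control-vector arrays, 5.71 to 5.95 on Bach2-vector arrays and 4.78 to 5.11 on B220+ arrays, with 6 of 8 well above background on all B220+ arrays. These sums are carried by the bright Xbp1 probe: with the Bach2 vector 5 of the 8 markers lay above 0, with a median of 0.94 and Irf4 called higher, and in B220+ cells against control-vector MPPs 4 of 8 did, with Sdc1 and Irf4 called higher and Xbp1 lower. Their part in these differences was not tested.

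In anti-IgM follicular B cells the members' means lay mostly above 0 without Bach2, and 12 chaperones, sensors and degradation genes rose when arrays were paired by replicate number. Of 39 members tested 36 had a difference above 0, against 38.1% of the 13073 genes, and the members' median was 0.41 against -0.16 for all genes. With arrays centred on the median instead, 25 of 39 lay above 0 and the medians were 0.18 and -0.39, so the direction of 11 members turned with the scaling. In the fit without pairing, 0 members were called, against 2.21% of genes higher and 0.513% lower. An unadjusted p under 0.05 was reached by 8 of 39 members, against 11% of all genes. With the replicate number as a block, 12 of 39 were called higher and 0 lower, against 9.58% and 13.2% of all genes. Arrays of the same number went together, but so did different numbers on the shared slide. The correlation was 0.50 for Bach2KO 2 with WT 3 and 0.23 for Bach2KO 3 with WT 2. With the slide as a block 6 members were called. Since RNA was taken from bulk cells, fewer cells of a type and less RNA per cell cannot be told apart.

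Chaperones made up most of these calls, 7 of 15 tested. Hsp90b1 (GRP94), the ER form of Hsp90, read 6.06, 5.77 and 5.92 in WT and 7.29, 6.50 and 7.30 in Bach2KO cells, so that all Bach2KO arrays were above all WT arrays. It was higher by 1.12 ± 0.33 (SE), 2.17-fold, with a limma adjusted p of 0.17 without and 0.0014 with the block. Manf read 3.78, 3.12 and 3.07 in WT and 5.16, 3.89 and 4.64 in Bach2KO, higher by 1.25 ± 0.40 (SE), 2.37-fold (adjusted p = 0.21 without and 0.00072 with the block). Its groups also separated. Sdf2l1 read 3.00, 1.98 and 2.25 in WT and 4.50, 2.87 and 3.90 in Bach2KO, and Pdia4 read 3.05, 2.03 and 2.33 in WT and 3.97, 2.99 and 3.48 in Bach2KO. The groups overlapped for both because number 1 was high in each genotype, while within every number Bach2KO was higher, by 0.89 to 1.65 for Sdf2l1 and 0.92 to 1.15 for Pdia4. Their blocked adjusted p was 0.00034 and 0.0020 in limma, against 0.27 and 0.36 without the block.

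Of 8 fits with a block, 3 (without the pair of number 1, with median centring and with normexp) gave every member the same standard error, so that a call there is only a limit on the size of the difference, and the tally is over the other 5. These were by replicate number, by slide, without the pair of number 2 or 3 (each on 4 arrays) and with quantile scaling. By replicate number the members' standard errors still lay between 0.197 and 0.233, so a call there also depended largely on the size of the difference. They ran from 0.190 to 0.305 by slide and from 0.133 to 0.229 with quantile scaling. The 5 fits reuse the same arrays, so a call in several of them is no separate evidence. Hsp90b1, Manf, Sdf2l1 and Pdia4 were called in all 5, and the largest adjusted p was 0.046 for Hsp90b1, 0.038 for Manf, 0.026 for Sdf2l1 and 0.044 for Pdia4. Calr (calreticulin), a lectin-like chaperone, read 5.83, 5.50 and 5.41 in WT and 6.81, 6.12 and 6.47 in Bach2KO and was called in 4 of the 5. Pdia3 read 4.04, 3.80 and 3.88 in WT and 5.23, 4.29 and 4.53 in Bach2KO and was called in 3. Hyou1 read -1.17, -0.92 and -0.81 in WT and -0.27, -0.42 and -0.18 in Bach2KO and was called in 2. These groups did not overlap, and the blocked adjusted p was 0.0061, 0.017 and 0.027 in limma.

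The remaining chaperones were closer to 0. Hspa5 (BiP), the main ER Hsp70, which also binds the sensors, read 7.70, 6.95 and 6.98 in WT and 7.90, 7.15 and 7.81 in Bach2KO, a difference of 0.41 ± 0.21 (SE with the block) that did not pass (blocked adjusted p = 0.16). Dnajc3 and Pdia6 differed by 0.54 and 0.53 and missed the threshold at 0.063 and 0.073 with the block. Canx (calnexin) and P4hb (protein disulfide isomerase) differed by 0.03 and -0.04 (blocked adjusted p = 0.92 and 0.90), and Canx lay below 0 with median centring. Fkbp11, which varied most in the progenitors, was well above background on 0 of 3 WT and 1 of 3 Bach2KO arrays and was not tested.

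All 5 sensors and transcription factors had higher values in Bach2KO within every replicate number (3 of 5 with median centring, where all 5 means stayed above 0), and 3 were called with the block. Creb3l2, an ER-membrane transcription factor related to Atf6, read -2.40, -2.76 and -2.23 in WT and -1.58, -1.57 and -1.63 in Bach2KO, with no overlap (0.87 ± 0.21, SE with the block; blocked adjusted p = 0.0079). Ddit3 read 1.25, 0.99 and 0.56 in WT and 2.17, 1.63 and 1.22 in Bach2KO, and Atf6, the sensor cleaved in the Golgi, read 0.51, -0.07 and -0.20 in WT and 1.46, 0.27 and 0.48 in Bach2KO. These groups overlapped, and the blocked adjusted p was 0.016 and 0.035. Creb3l2 was called in 5, Ddit3 in 3 and Atf6 in 2 of the 5 blocked fits. Creb3l2 was lost with median centring or normexp, and Ddit3 and Atf6 with the slide block. Ern1 and Atf4 differed by 0.48 and 0.24 and were not called (blocked adjusted p = 0.091 and 0.39 in limma).

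Of the 8 degradation genes all lay above 0 (4 with median centring) and 2 were called with the block. Herpud1, which gathers the degradation complex and carries both ERSE-II and the amino-acid response element in its promoter window, read 4.34, 4.14 and 4.31 in WT and 4.73, 4.62 and 5.22 in Bach2KO (0.60, blocked adjusted p = 0.048). Derl3 read -0.28, -1.13 and -0.53 in WT and 0.27, -0.73 and 0.27 in Bach2KO (0.58, blocked adjusted p = 0.049). Both were lost in most other blocked fits, being called in 2 and 1 of the 5. Edem1 differed by 0.57, and the ligase Syvn1 and its adaptor Sel1l by 0.11 and 0.13, both below 0 with median centring.

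None of the 11 translocon and signal peptidase genes was called (0), with or without the block. Their median was 0.09, from -0.37 for Sec61g, a small channel subunit, to 0.42 for Spcs2, a signal peptidase subunit. Sec61a1, the pore of the channel, read 5.81, 5.34 and 5.49 in WT and 5.69, 5.27 and 5.85 in Bach2KO, and its difference turned below 0 with median centring. Sec61g read 8.37, 6.66 and 6.64 in WT and 7.33, 6.51 and 6.72 in Bach2KO, where WT replicate 1 stood apart. By role the other medians were 0.54 for chaperones, 0.28 for degradation genes and 0.65 for sensors. Whether the roles differ was not tested.

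**Figure D4:**
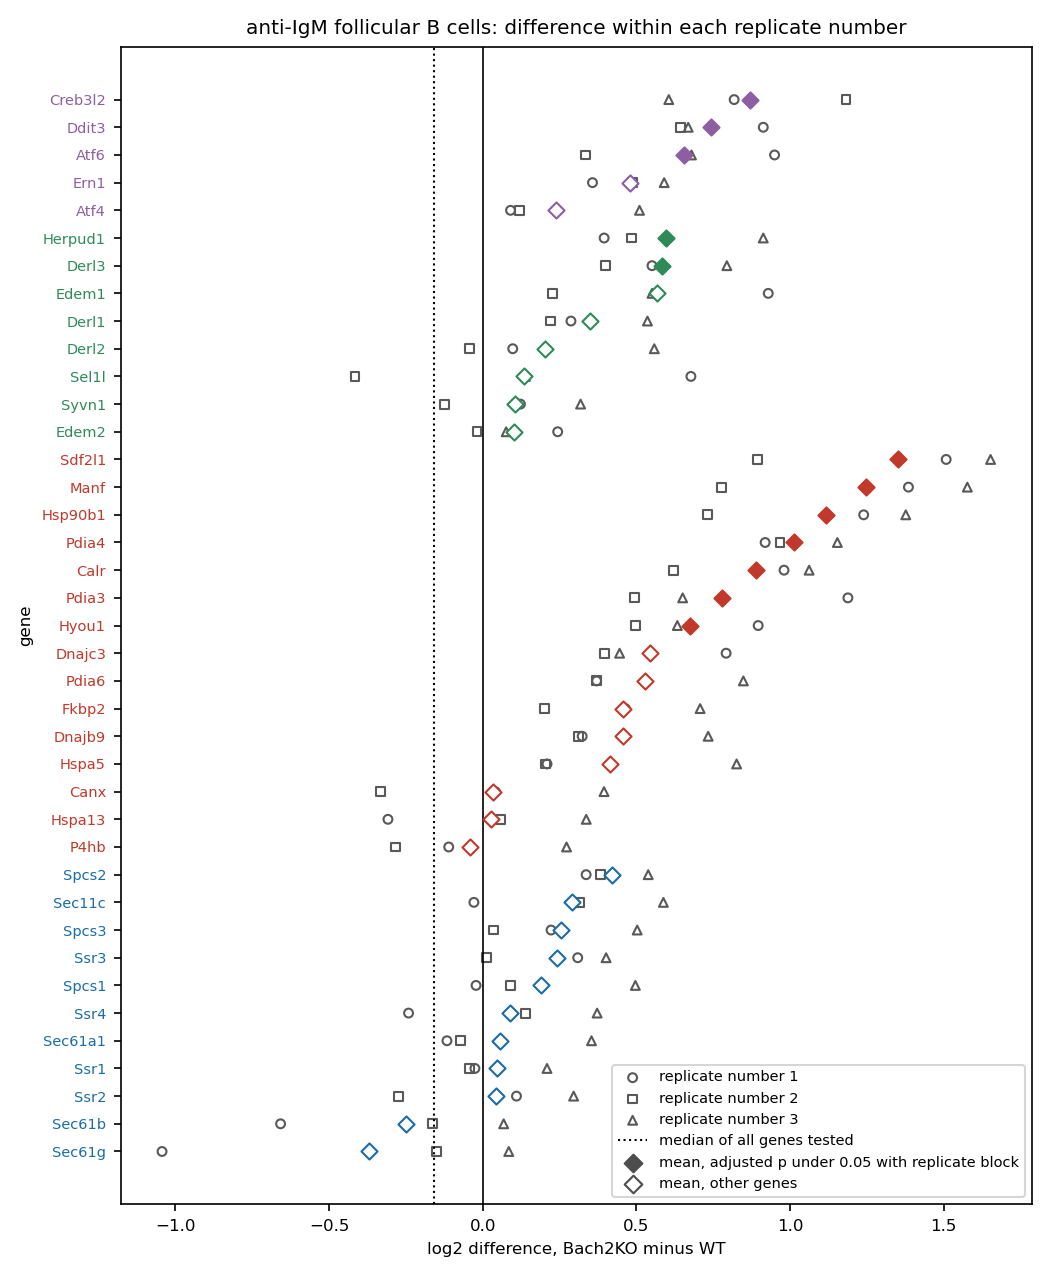
Open grey symbols give the Bach2KO minus WT log2 difference within replicate numbers 1, 2 and 3 for 39 members, ordered by role (purple sensors, green degradation, red chaperones, blue translocon), and diamonds the mean, filled where the adjusted p with the replicate block is under 0.05; the dotted line is the median of all genes, -0.16. The filled diamonds, 12 in all, are red, purple and green, and the blue genes gather about 0.

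In 24 of 39 members all 3 numbers gave a higher value in Bach2KO, against 20% of all genes: 12 of 15 chaperones, 5 of 5 sensors, 4 of 8 degradation genes and 3 of 11 translocon and signal peptidase genes. With median centring it was 11 of 39 members against 10.5% of all genes: 7 chaperones, 3 sensors, 1 degradation gene and 0 of the translocon and signal peptidase. The groups separated upward in 7 members, Hsp90b1, Manf, Creb3l2, Calr, Hyou1, Pdia3 and Herpud1, against 8.12% of genes, and downward in 0, against 10.6%. With the slide as a block 6 members were called, all higher, against 5.22% of genes. Without the pair of number 1, 2 or 3 the blocked fit called 5, 11 and 5 members. Of all genes it called 1535 of 13006, 1899 of 13071 and 1470 of 13006 in either direction. With the block and median centring it called 4 (Hsp90b1, Manf, Sdf2l1 and Pdia4), while all genes counted 737 higher and 2714 lower.

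Against the ERSE matches, the 9 tested members with ERSE or ERSE-II had differences from 0.03 to 1.12 with a median of 0.54, and 4 were called with the block (Hsp90b1, Calr, Herpud1 and Derl3). The 21 tested members with a window and neither motif ran from -0.37 to 1.35 with a median of 0.24, and 5 were called (Sdf2l1, Pdia4, Creb3l2, Ddit3 and Pdia3). These calls were all higher, beside 9.58% of all genes called higher and 13.2% called lower with the block. Both sets thus hold called and uncalled genes. Manf, Hyou1 and Atf6 had no window.

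Outside the set, 91 of the 94 other pathway genes were tested in follicular B cells, of which 4 were called higher and 0 lower without the block, and 14 higher and 1 lower with it. Over all genes the shares were 2.21% and 0.513% without the block and 9.58% and 13.2% with it. Chac1, a glutathione-degrading Atf4 target, read 0.06, 0.34 and -0.78 in WT and 3.03, 2.60 and 2.57 in Bach2KO and rose by 2.86 ± 0.37 (SE; limma adjusted p = 0.0041). Asns, asparagine synthetase, read 2.05, 1.53 and 1.10 in WT and 4.42, 3.44 and 3.84 in Bach2KO and rose by 2.34 ± 0.38 (SE; adjusted p = 0.013). Atf3, a stress-induced factor, rose by 3.65 and Sec24d by 1.65 (adjusted p = 0.016 and 0.045). Atf4 targets counted 2 of 14 called, or 6 with the block, with a median of 0.53. The 13 N-glycosylation genes counted 0 with either and had a median of 0.07, and the lists were not tested against each other. Xbp1 read 5.93, 5.31 and 5.31 in WT and 6.87, 5.94 and 6.55 in Bach2KO, with no overlap (0.94; adjusted p = 0.35, 0.0048 with the block).

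Markers of other cells moved in this experiment too. Plasma-cell markers, of which 7 of 8 were well above background in both genotypes and Tnfrsf17 in neither, summed to 6.82 to 7.74 on WT and 7.47 to 8.41 on Bach2KO arrays. Prdm1, the factor that drives plasma-cell differentiation, rose by 4.94 and Jchain by 3.43 (limma adjusted p = 0.00092 for both), while Sdc1, the plasma-cell surface marker, differed by 0.27 (adjusted p = 0.88). Granulocyte markers summed to 0.62 to 4.05 on WT and 3.45 to 5.64 on Bach2KO arrays, with 4 and 6 of 8 well above background on all arrays, and erythroid markers to -1.72 to 0.42 and 1.87 to 3.99, with Klf1 below background in both. Mature B-cell markers summed to 8.52 to 9.39 on WT and 7.52 to 8.23 on Bach2KO arrays. The part of these cells in the members' differences was not tested.

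Over the 7 groups, Fkbp11 had the widest range of group means. Its order was control-vector MPPs (3.67 ± 0.36, SD, n = 3), Bach2-vector MPPs (2.09 ± 0.48), DD CLPs (-0.59 ± 0.57), B220+ cells (-0.89 ± 1.06) and WT CLPs (-3.21 ± 0.36), with both follicular B-cell groups near background. DD CLPs and B220+ cells overlapped, and the other neighbours among progenitors did not. RNA of the progenitors was amplified in 2 rounds and that of follicular B cells with another kit, so levels across experiments cannot be told apart from the preparation. The highest group mean was in control-vector MPPs for 16 members and in Bach2KO follicular B cells for 14 (15 and 9 with median centring), and the lowest in WT follicular B cells for 13 and WT CLPs for 11 (11 and 12).

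In 4 of the 41 members, Sec11c, Ssr3, Spcs3 and Fkbp11, all 6 follicular B-cell arrays lay below all 15 progenitor arrays. In 5, Sec61g, Pdia4, Pdia6, Hyou1 and Syvn1, they lay above them. Over all genes well above background on at least 3 arrays, 12.2% lay below and 9.94% above. Under median centring the member counts were 3 and 1, and the shares of all genes 13.4% and 6.37%. Hyou1 kept its place above under both, with means of -0.97 in WT and -0.29 in Bach2KO follicular B cells and its lowest mean of -5.63 in DD CLPs. Its probe was dim, well above background on 2 of 3 DD CLP and 2 of 3 B220+ arrays. Both scalings are relative to each array's brightness, with a 75th percentile of 97.3 to 358 in follicular and 2858 to 5127 in CLP arrays. The place of Hyou1 thus cannot be told apart from this difference in brightness. Among the 13 further probes of members, 11 gave the same sign of the Bach2KO minus WT difference as the main probe, 11 in each comparison with control-vector MPPs, 10 in B220+ cells against Bach2-vector MPPs and 8 in CLPs.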

How the data were processed

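The values came from 21 single-colour arrays in 7 groups. Per the file headers, each spot's processed intensity was background-corrected by Feature Extraction 10.7.3.1; the submitters' processing notes name Agilent Feature Extraction 9.1. The deposited series table held the same intensity values for all 21 arrays. The headers name design build mm9, another build than the RefSeq tables used for names.

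Log2 intensities were centred on each array's 75th percentile of non-control spots, without spots marked as outliers, and repeated spots averaged per probe. Names came from RefSeq accessions without version (GRCm38.p6): 26413 of 55681 probes matched. Genes that 3 or more arrays of an experiment measured well above background, with at least 2 values per group, were tested with limma 3.58.1 (lmFit, eBayes) in R 4.3.3, with Benjamini-Hochberg adjustment over all genes, called at an adjusted p under 0.05. Probes saturated or arrays identical: 0. The R package data.table (version 1.17.8), Python 3.11.15, pandas 2.3.3, numpy 2.4.6 and matplotlib 3.10.9 were used. The fit was tested on simulated data.

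Replicate numbers come from the labels and were taken to pair arrays where every same-number correlation of deviations from the group mean exceeded 0.1. It was 0.43, 0.39 and 0.22 in CLPs, 0.65, 0.41 and 0.30 between vectors and 0.86, 0.72 and 0.54 in follicular B cells, where number 1 also lay on its own slide. Numbers 2 and 3 shared a slide between vectors and in follicular B cells, and across these numbers the correlation also exceeded 0.1. It was 0.31 and 0.22 between vectors and 0.50 and 0.23 in follicular B cells. The rule thus cannot tell pairing by number from a shared slide. B220+ comparisons were not paired.

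The members and lists were chosen with earlier results of these data known. All members were placed by role; called members and up to 6 with the smallest unadjusted p were named with array values, and of each other list up to 4 called genes, filled to 2. Some marker genes are not reported here and were left out of the marker sums. Alternatives were normexp (on median signal and median background, as mean signal was not among the columns), quantile and median scaling, other filters and probes, a variance trend, blocks and leaving out arrays. Replicate blocks with another normalization or without a pair were added after the data were seen. Nothing says that all replicates are separate animals, so p-values measure spread between these samples.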

Additional observations from a re-analysis of the deposited data

How the results depend on the processing

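The series table gave the same values as the scanner intensities. For the 6 members per comparison (12 in follicular B cells) that were called or had the smallest p, 756 values were recomputed: 664 kept direction and call, 84 came to pass, 8 ceased to pass and 0 turned. Of the other members, 11 turned with median centring in follicular B cells. In CLPs the 1 gene called became 0 with quantile scaling, median centring and the replicate block, with all pairs or without pair 1, 2 or 3. The slide block is the same fit there, since each number had its own slide. Without single arrays 0 to 16 genes were called. The members' median of 0.02 became -0.15 with quantile scaling, 0.095 with median centring and -0.059 to 0.15 without single arrays. For the Bach2 vector 305 genes became 106 to 517 without single arrays (517 without B220+ replicate 3), 325 with the replicate block and 0 with it without pair 1 or pair 2; 0 members became at most 1 and the median of -0.12 became -0.25 to -0.012. Against control-vector MPPs the 2 B220+ members called became 4 with normexp, 1 with median centring or the slide block, 5 requiring every array above background, 7 with a variance trend and 1 to 3 without single arrays; 2056 genes became 1034 to 2637, and the median of -0.33 became -0.020 with median centring. Against Bach2-vector MPPs the 1 member became 3 with normexp or a variance trend, 2 with quantile scaling, every array above background or the mean of all probes, 0 with the slide block and 0 to 2 without single arrays; 1048 genes became 670 from the compared arrays alone and 443 to 1707 without single arrays. B220+ numbers share only a number: a replicate block made 2588 and 1388 genes. In follicular B cells 356 genes became 123 with normexp, 144 with median centring, 1195 with the slide block, 159 to 442 without single arrays and 2980 with the replicate block (1535, 1899 and 1470 without pair 1, 2 or 3, 1296 with quantile scaling, 3451 with median centring, 2548 with normexp). The 0 members became 2 with quantile scaling (Hsp90b1 and Manf), 6 with the slide block and 12 with the replicate block (5, 11 and 5 without pair 1, 2 or 3, 11 with quantile scaling, 4 with median centring, 8 with normexp); without pair 1, with median centring and with normexp the blocked fit gave members 1 common standard error. The median of 0.41 became 0.18 with median centring, with or without the block, and 0.21 to 0.55 without single arrays. Members with all follicular above all progenitor arrays went from 5 to 1 with median centring. The cause of these changes was not tested. With 3 arrays a group and probes near background (Fkbp11 in follicular B cells), small differences were not measurable.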

Other observations

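Outside the 41 genes, 39 genes had a promoter window with the ERSE or ERSE-II letters, and 18 of them were tested in follicular B cells. Of these 8 lay above 0, with a median of -0.09 against -0.16 for all genes and a range of -1.33 to 1.03. With the replicate block 2 were called higher and 4 lower, against 9.58% and 13.2% of all genes.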
